A study of Mus musculus with 12 samples.

Results

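Control mouse embryonic stem cells were compared after 3 and 1.5 days of culture, in the interval before the cultures were split. The comparison took 4 of the 12 arrays of the series, chosen by their titles: 2 arrays of control cells on day 3 and 2 of control cells on day 1.5. Embryonic stem cells are the self-renewing cells derived from the inner cell mass of the blastocyst. The control line was Roninflox/flox, that is, loxP sites flank part of both alleles of Thap11, the gene for the zinc finger protein Ronin, and no Cre recombinase is listed for it. The other line of the series, used here only beside the control, carries CreERT2 and Roninflox/flox and loses Thap11 under tamoxifen. Both lines, on every day, received 0.25 µM tamoxifen, so the control cells of day 3 and of day 1.5 were exposed to the drug as well and differed in how long. Cells were plated at 100000 per 10 cm2 in standard embryonic stem cell medium and were split on day 4, so that both days compared here belong to 1 unsplit culture period and day 6 follows a new plating. Time since plating, time in tamoxifen and the density of the culture moved together and cannot be told apart. The number of clones, the passage and the use of feeder cells are not given in the sources used here.

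In a culture that grows without being split, cells gain neighbours and colonies thicken, while oxygen and nutrients are drawn down and secreted products build up. As textbook background, the cytoskeleton passes information on shape and crowding to the nucleus through SRF, a transcription factor sensitive to actin, and through YAP, a coactivator that is held out of the nucleus in crowded cells. Low oxygen acts through the HIF transcription factors, amino acid shortage through ATF4, and lysosome demand through TFEB. Self-renewal itself rests on Pou5f1, Sox2 and Nanog together with the cytokine LIF and with BMP signals, while FGF4 made by the cells themselves drives ERK signalling and readiness to differentiate.

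RNA was measured on Affymetrix Mouse Genome 430 2.0 arrays, and the values are RMA intensities on a linear scale. RMA brings all arrays to a common distribution, so every level is relative to the other RNAs of its array. Of the 45101 probe sets, 34958 carry 1 gene symbol, and the brightest probe set of each gene gave 18194 genes. Fold changes are differences of log2 intensity, day 3 minus day 1.5, so a positive value is higher on day 3, with a standard error (SE) from a limma fit over all 12 arrays. A gene was called at an adjusted p (Benjamini-Hochberg over all genes) under 0.05. Replicate arrays correlated at 0.99816 to 0.99856 over all genes. Whether the paired arrays of each group were grown as separate cultures is not stated, and the p-values therefore reflect array-to-array spread, which may be technical. The arrays of day 3 in both lines had medians of 44.36 to 44.72, and the arrays of the other days had medians of 42.37 to 43.04. The log2 difference between the 3′ and 5′ probe sets of Gapdh, a measure of RNA integrity, was 0.294 and 0.298 on control day 3, against 0.179 and 0.203 on control day 1.5. The same difference for Actb was 0.823 and 0.921 on control day 3 and 0.759 and 0.954 on control day 1.5, with overlapping arrays. The part of RNA integrity in the results below was not tested.

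The targeted gene checked the labels. Thap11 measured 1279 and 1290 on control day 3, against 1262 and 1181 on control day 1.5 (log2 fold change 0.07 ± 0.08, limma adjusted p = 0.577). In the line with CreERT2 it changed by -1.75 between the same days (limma adjusted p = 1.07e-05). Hcfc1, the cofactor that binds Ronin, measured 2414 and 2358 on control day 3 and 2587 and 2494 on control day 1.5 and was not called. The arrays of the embryonic stem cell label also carried bright signals of the defining markers. Pou5f1 measured 10976 and 11400 on day 3 and 11586 and 11454 on day 1.5, and Sox2 measured 7971 and 8866 on day 3 and 7422 and 8787 on day 1.5, with overlapping arrays for Sox2.

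Between the 2 days 4966 genes passed the test, 27.3% of the genes tested. Higher on day 3 were 1659 genes (9.12%) and lower were 3307 (18.2%), so 33.4% of the calls were rises. With each array centred on its own median the share of rises was 22.5%, and after quantile normalization it was 44.8%, so the balance of rises and falls depends on the scaling. Without replicate 1 of control day 1.5 the count of called genes was 3156. Most changes were small: the median size among called genes was 0.349 on the log2 scale, and the median over all genes was -0.0171. At least 2-fold higher were 26 called genes (0.143%) and at least 2-fold lower were 120 (0.660%). All 4966 called genes had arrays of the 2 days that did not overlap, which held for 60.0% of all genes.

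**Figure D1:**
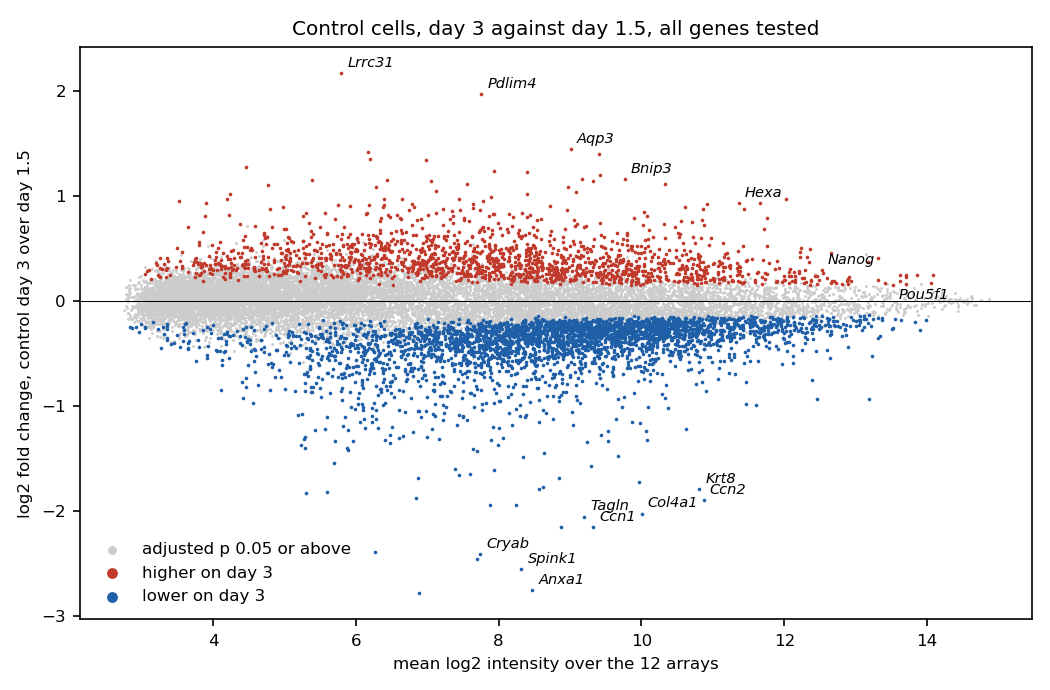
Each point is 1 of the 18194 genes, with its mean log2 intensity over the 12 arrays on the horizontal axis and its log2 fold change, control day 3 over day 1.5, on the vertical axis. Coloured points passed the test (1659 higher, 3307 lower), and the largest falls, such as Anxa1 at -2.75, reach farther from 0 than the largest rises, such as Lrrc31 at 2.17.

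The 15 largest falls were of several kinds. Anxa1, a calcium-dependent membrane-binding protein, measured 77.7 and 68.1 on day 3, against 515 and 466 on day 1.5 (log2 fold change -2.75 ± 0.09, limma adjusted p = 4.88e-07). Its relative Anxa3 measured 57.3 and 51.9 on day 3, against 319 and 281 on day 1.5 (-2.46 ± 0.08). In both genes the days lay far apart and the replicate arrays close together. Glipr1, a secreted CAP-domain protein, measured 38.9 and 48.1 on day 3, against 309 and 286 on day 1.5 (-2.78 ± 0.18). Spink1, a secreted trypsin inhibitor, measured 88.0 and 76.8 on day 3, against 453 and 513 on day 1.5 (-2.55 ± 0.08). Cryab, a small heat shock chaperone, measured 70.8 and 66.8 on day 3, against 367 and 363 on day 1.5 (-2.41 ± 0.08). All 3 genes encode proteins outside the pluripotency network, and all 3 were low on both arrays of day 3. Pla2g7, a secreted phospholipase, fell by 2.39, Pth1r, the parathyroid hormone receptor, fell by 1.88, and Bmper, a secreted BMP-binding protein, fell by 1.83.

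Ccnd2, the D-type cyclin that carries growth signals into G1, was also among the 15 largest falls. It measured 98.3 and 95.3 on day 3, against 384 and 360 on day 1.5 (-1.94 ± 0.06, limma adjusted p = 4.88e-07), and 6 other probe sets of the gene were called lower as well. The 15 largest falls ran from -1.83 to -2.78 on the log2 scale, and their arrays did not overlap because the rule for naming them asked for that. Acta2 and Ccn1 were measured by probe sets whose probes are shared with other transcripts, and the 2 other probe sets of Acta2 were not called.

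The largest rises were more mixed in kind. Lrrc31, a leucine-rich repeat protein, measured 207 and 157 on day 3, against 44.0 and 36.6 on day 1.5 (2.17 ± 0.16, limma adjusted p = 4.04e-05). Pdlim4, an actin-associated PDZ and LIM domain protein, measured 468 and 465 on day 3, against 113 and 126 on day 1.5 (1.96 ± 0.07). Aqp3, a water and glycerol channel, measured 863 and 822 on day 3, against 326 and 294 on day 1.5 (1.44 ± 0.07). These 3 genes were high on both day 3 arrays, with the 2 arrays of Lrrc31 the least alike. Sycp3, a structural protein of the meiotic chromosome axis that embryonic stem cells also express, measured 1097 and 1091 on day 3, against 421 and 412 on day 1.5 (1.39 ± 0.07). Bnip3, a mitophagy receptor and classic HIF target, measured 1723 and 1817 on day 3, against 776 and 807 on day 1.5 (1.16 ± 0.09).

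Other large rises were Pdzk1, a scaffold for membrane transporters (1.41 ± 0.14), Camk2n1, an inhibitor of the kinase CaMKII (1.34 ± 0.09), and Ank3, a linker of membrane proteins to the spectrin skeleton (1.24 ± 0.06). S100a13, a calcium-binding protein, rose by 1.23 ± 0.08, and Ninj1, an adhesion protein that acts in plasma membrane rupture, rose by 1.2 ± 0.05 on a probe set with shared probes. Dtx1, an E3 ligase of the Notch pathway, rose by 1.16 ± 0.08, and Dner, a Notch-related neuronal surface protein, rose by 1.15 ± 0.10. Tbrg3, at 57.5 and 30.6 on day 3, against 18.1 and 16.7 on day 1.5, had the widest gap between replicates among the 15 (1.27 ± 0.23).

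**Figure D2:**
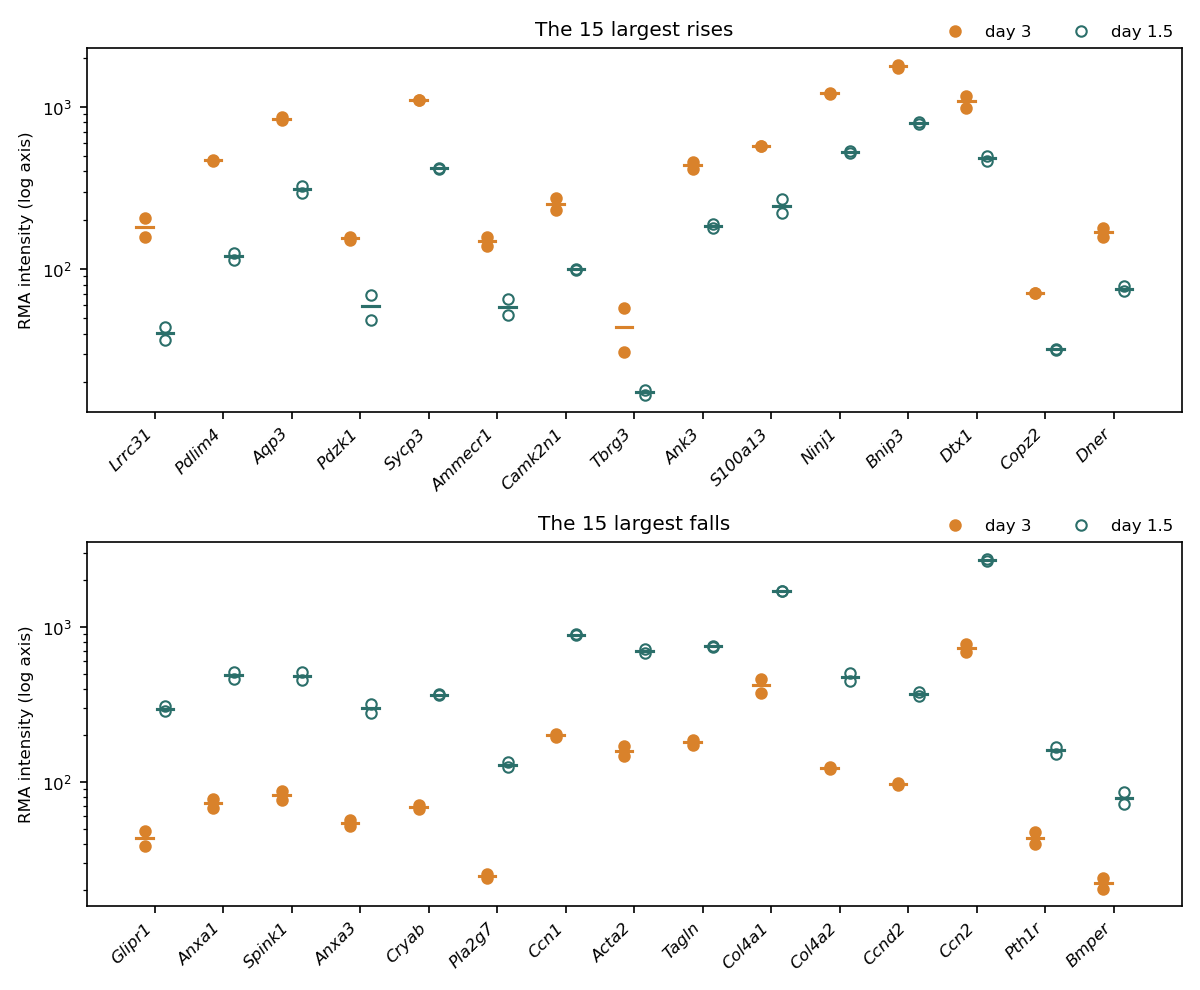
RMA intensity on a log axis of the 15 genes with the largest rise (upper panel) and the 15 with the largest fall (lower panel), with filled circles for the 2 arrays of day 3, open circles for the 2 arrays of day 1.5 and bars for the mean of each pair. In every one of these genes both circles of one day lie beyond both circles of the other, as the rule for naming them required, and replicates differ most in Tbrg3 on day 3.

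Beyond single genes, 43 lists were read, with 906 different genes in all, of which 114 were called higher and 271 lower. Counts of each list are to be read against the shares over all genes, 9.12% higher and 18.2% lower, and a list's median, where given, against -0.0171. Counts of 1 or 2 members often changed by 1 when an array was left out and are given for completeness. Among the genes named below, Actg1, Aldoa, Laptm4b, Wipi1, Hspa8, Hmgcs1, Cdk4, Mcm7, Asns, Vldlr, Cubn and Gbp2 were measured by probe sets with probes shared with other transcripts, as were those marked so in the text. The RNA came from whole cultures, in which fewer cells of a type and less RNA per cell cannot be told apart.

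**Figure D3:**
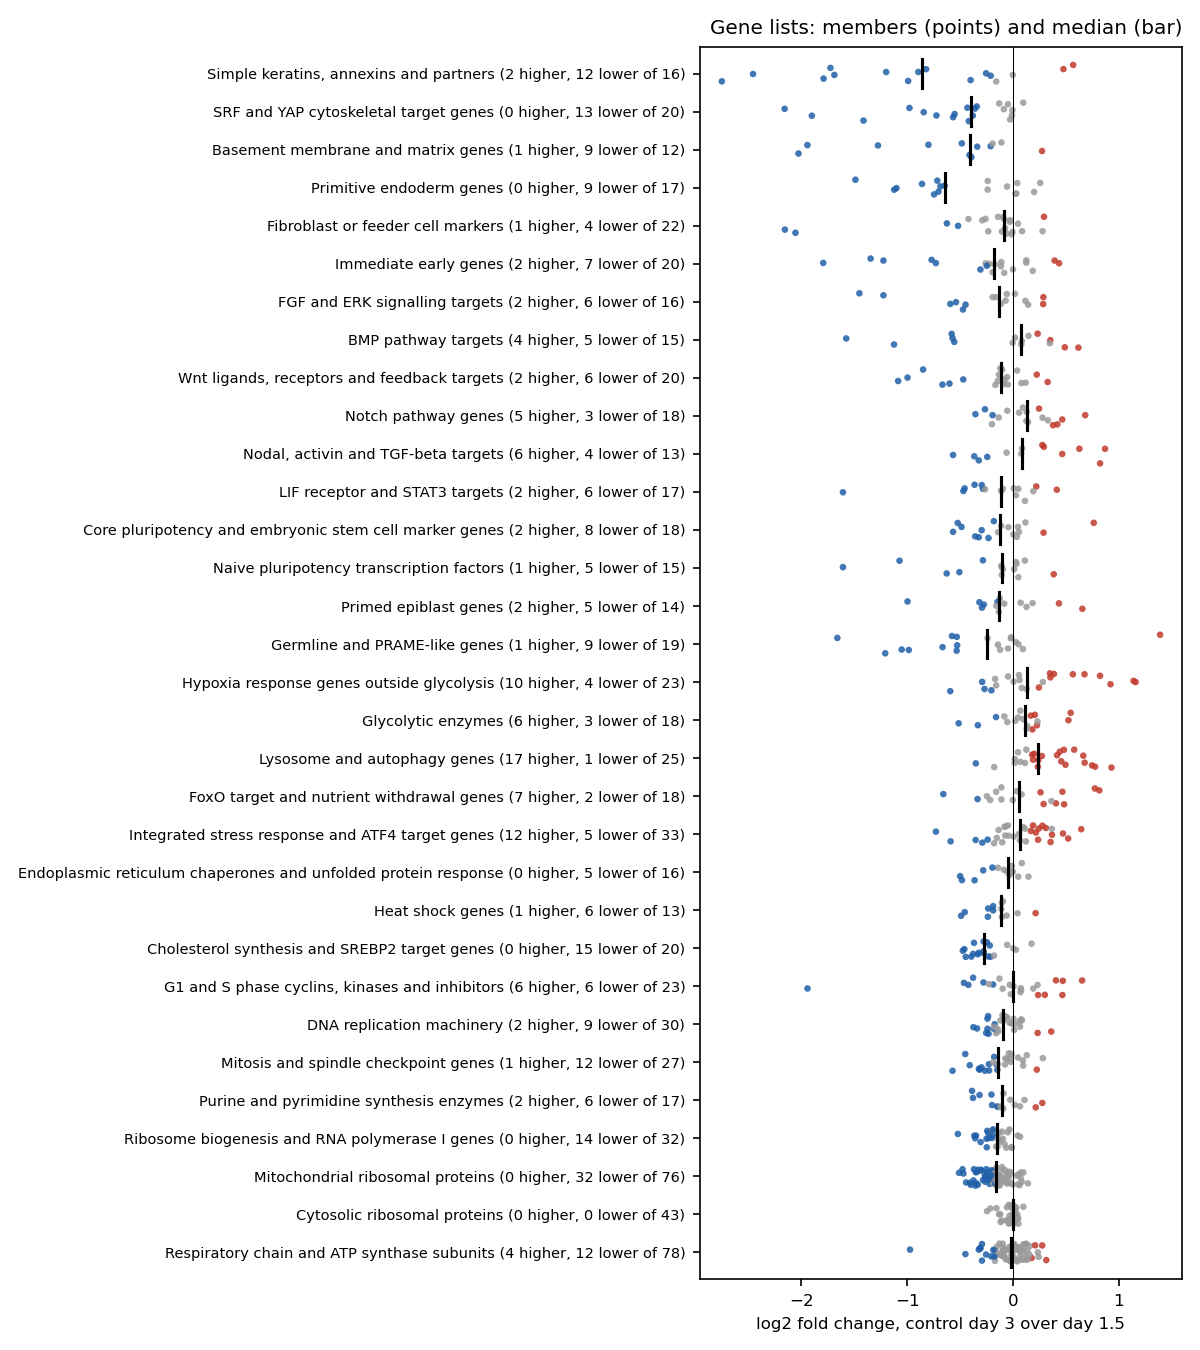
Log2 fold change, control day 3 over day 1.5, of each measured member (points) of 32 of the lists, with the median of a list as a black bar, rises that passed the test in red, falls in blue and the rest in grey. The keratin and annexin list lies farthest to the left, with a median of -0.86, the lysosome list farthest to the right, with a median of 0.24, and the cytosolic ribosomal proteins cluster at 0.

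Simple keratins, annexins and their partners fell as a group. These proteins build and anchor the intermediate filament and cortical skeleton of simple epithelia. Of 16 measured members 12 were called lower and 2 higher, with a median of -0.86. With probe sets averaged per gene the median was -0.50. Krt8, the type II keratin of simple epithelia, measured 660 and 595 on day 3, against 2175 and 2157 on day 1.5 (-1.79 ± 0.06, limma adjusted p = 5.35e-07), and 2 other probe sets of it were called lower too. Its obligate partner Krt18 measured 402 and 340 on day 3, against 1245 and 1198 on day 1.5 (-1.72 ± 0.08). The pair of keratins thus changed by nearly the same amount, with no overlap between the days. Besides Anxa1 and Anxa3, Anxa2 fell by 1.69 and Krt19 fell by 1.2. Lgals3, a secreted lectin, was the brightest member that was not called, at 1341 and 1387 on day 3 and 1402 and 1327 on day 1.5. The 2 members that rose were claudins, the strand proteins of tight junctions: Cldn7 measured 1005 and 981 on day 3, against 681 and 657 on day 1.5 (0.57 ± 0.06), and Cldn4 rose by 0.48 ± 0.06.

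Adhesion genes moved in both directions. Of 21 measured members 4 were higher and 7 lower, with a median of 0.04. The median turned to -0.02 without replicate 2 of control day 3 and to -0.01 with median centring, and was 0.07 without replicate 2 of control day 1.5 or replicate 1 of control day 3. The 4 that rose were claudins, Cldn7, Cldn4, Cldn3 and Cldn6. Cdh2, the N-cadherin of mesenchymal and neural cells, measured 91.9 and 105 on day 3, against 207 and 223 on day 1.5 (-1.13 ± 0.09, limma adjusted p = 4.55e-05). Itgb1, the common beta subunit of matrix-binding integrins, measured 359 and 346 on day 3, against 536 and 536 on day 1.5 (-0.60 ± 0.05). Cdh1, the E-cadherin of epithelia and stem cell colonies, had a log2 fold change of 0.12 ± 0.06 and was not called (limma adjusted p = 0.183), and Epcam, another epithelial adhesion protein, had one of 0.09 ± 0.05.

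Target genes of SRF and YAP, which include contractile proteins and the secreted CCN proteins, also fell. Of 20 measured members 13 were called lower and 0 higher, with a median of -0.40. Ccn1, a matrix-associated signalling protein and standard YAP target, measured 204 and 196 on day 3, against 902 and 883 on day 1.5 (-2.16 ± 0.05, limma adjusted p = 1.9e-07), and 3 of its other probe sets were called lower. Its relative Ccn2 measured 686 and 774 on day 3, against 2760 and 2680 on day 1.5 (-1.90 ± 0.06). Both were several-fold lower on each array of day 3 than on either array of day 1.5. Myl9, the regulatory light chain of smooth muscle and nonmuscle myosin, measured 78.0 and 68.4 on day 3, against 213 and 177 on day 1.5 (-1.41 ± 0.10). Ankrd1, a nuclear ankyrin repeat protein, fell by 0.98 ± 0.09. The cytoplasmic actins did not move beyond their spread: Actb had a log2 fold change of -0.01 ± 0.05 and Actg1 of -0.05 ± 0.05.

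The promoters of Ccn1 and Myl9 are printed because these 2 genes carry the largest falls with a binding motif of the 2 factors in the window. The sequences are from RefSeq on the GRCm38.p6 assembly, 250 bases before to 50 after the gene start, read 5′ to 3′ along the gene. Of the 18194 genes tested, 14453 have a promoter in that table. Ccn1 lies at chr3:145649936-145650235 on the minus strand, and its capitals mark GGAATG, the core bound by the TEAD partners of YAP, here on the opposite strand. Myl9 lies at chr2:156775214-156775513 on the plus strand, and its capitals mark a CArG box, the motif of SRF.
Ccn1: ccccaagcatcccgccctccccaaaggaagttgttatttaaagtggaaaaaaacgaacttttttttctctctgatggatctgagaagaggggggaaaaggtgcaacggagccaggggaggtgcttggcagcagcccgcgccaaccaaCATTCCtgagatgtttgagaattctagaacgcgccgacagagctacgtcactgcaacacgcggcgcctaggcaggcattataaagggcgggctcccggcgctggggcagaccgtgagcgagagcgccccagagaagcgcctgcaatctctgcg
Myl9: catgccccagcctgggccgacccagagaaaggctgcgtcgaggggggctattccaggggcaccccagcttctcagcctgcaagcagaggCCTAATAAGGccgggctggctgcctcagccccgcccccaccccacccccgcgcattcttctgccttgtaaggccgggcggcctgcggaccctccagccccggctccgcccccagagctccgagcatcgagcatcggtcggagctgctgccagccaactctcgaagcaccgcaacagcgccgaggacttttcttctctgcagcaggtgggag

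Searched on both strands, GGAATG was in 63.6% of the promoters of the called members of this list (7 of 11 promoters). It was in 52.9% of those of all members (9 of 17 promoters), in 14.7% of all promoters and in 13.2% of those of the genes tested. The CArG box was in 27.3% of the promoters of the called members (3 of 11 promoters, those of Cnn2, Myl9 and Vcl). It was in 29.4% of those of all members (5 of 17 promoters), in 1.63% of all promoters and in 1.35% of those of the genes tested. In the immediate early list, described below, the CArG box was in 26.3% of the promoters of all members (5 of 19 promoters). All 5 are starts of Egr2 or Zfp36, among 15 members with a listed promoter. The box was in 0 of 4 promoters of members called lower there and in 0 of 2 of members called higher. Of the 7 members called lower, only 4 have a listed promoter. These 2 motifs were added after the values were seen, and the SRF and YAP list was built from known targets of both factors. A match is a description of the letters, not a site.

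Basement membrane genes fell with the cytoskeletal ones. The basement membrane is the sheet of type IV collagen, laminin and nidogen that epithelial cells lay down beneath them. Of 12 measured members 9 were lower and 1 higher, with a median of -0.40. Col4a1 measured 378 and 462 on day 3, against 1709 and 1698 on day 1.5 (-2.03 ± 0.08, limma adjusted p = 1.76e-06), and Col4a2, the other chain of the same collagen and its neighbour on a shared bidirectional promoter, measured 126 and 122 on day 3, against 503 and 448 on day 1.5 (-1.94 ± 0.08). The pair fell by almost the same amount. Lama1, a laminin chain of early embryos, measured 419 and 395 on day 3, against 1009 and 960 on day 1.5 (-1.28 ± 0.05). Serpinh1, the collagen chaperone, fell by 0.80 ± 0.05 on a probe set with shared probes. Fn1, fibronectin, was the 1 member that rose (0.28).

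Primitive endoderm genes were lower on day 3. The primitive endoderm is the extraembryonic layer next to the epiblast, and embryonic stem cell cultures hold some cells that express its genes. Of 17 measured members 9 were lower and 0 higher, with a median of -0.64. With probe sets averaged per gene the median was -0.24. Srgn, a proteoglycan core protein, measured 236 and 236 on day 3, against 673 and 652 on day 1.5 (-1.49 ± 0.11). Gata6, the lineage's early transcription factor, measured 46.5 and 55.0 on day 3, against 117 and 103 on day 1.5 (-1.12 ± 0.12, limma adjusted p = 0.000246). Sox7, another of its transcription factors, fell by 1.10 ± 0.08, and Foxa2 fell by 0.86 ± 0.14. The lineage also makes Lama1 and Col4a1. Apoe, the brightest member not called, had a log2 fold change of 0.26 ± 0.09, and Gata4 had one of -0.24. The summed intensity of the 17 members was 9793 and 9661 on day 3, against 10975 and 9920 on day 1.5, with Apoe as the largest part.

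Among fibroblast or feeder cell markers the share called was 22.7%, against 27.3% of all genes. Of 22 measured fibroblast or feeder markers 4 fell and 1 rose, with a median of -0.09 (-0.13 without replicate 2 of control day 3 or of control day 1.5, and -0.19 without the dimmest genes), and their summed intensity was 1410 and 1385 on day 3, against 2630 and 2544 on day 1.5. Most of that difference was in Tagln and Acta2, actin-associated genes of smooth muscle and fibroblasts that are also SRF targets. Tagln measured 175 and 188 on day 3, against 760 and 745 on day 1.5 (-2.05 ± 0.06, limma adjusted p = 4.88e-07), and Acta2 fell by 2.15 ± 0.11. The fibroblast collagen Col1a1 measured 37.0 and 42.9 on day 3 and averaged 46.9 on day 1.5, Col3a1 10.4 and 10.6 on day 3 and 11.1 and 10.0 on day 1.5, and Dcn 29.7 and 29.0 on day 3 and 29.4 and 32.6 on day 1.5. Col5a2, another collagen of the list, was called lower (-0.62). It was not called with the mean of all its probe sets (-0.22, limma adjusted p = 0.285). Its log2 fold change was -0.43 without replicate 2 of control day 1.5 and -0.50 without replicate 1 of control day 3. Thy1, a surface marker of the list, had a log2 fold change of -0.29 and was not called. No detection calls were used, so no marker was set at 0. The part of fibroblasts or of other contractile cells in the fall of Tagln and Acta2 was not tested.

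In the mesoderm, neural and trophoblast lists 15.4%, 23.1% and 26.7% of the measured members were called, against 27.3% of all genes. Of 13 mesoderm genes 2 fell and 0 rose, and their summed intensity was 1035 and 1023 on day 3, against 2000 and 1926 on day 1.5, mostly through Bmp4. Of 13 neural genes 3 fell and 0 rose, with summed intensities of 1579 and 1573 on day 3, against 2043 and 1948 on day 1.5. Of 15 trophoblast genes 2 fell and 2 rose, and their sums were 3942 and 4333 on day 3, against 4678 and 4664 on day 1.5. Tfap2c, a transcription factor of trophoblast and germ cells, rose by 0.76 ± 0.08 on a probe set with shared probes. Krt8 is a member of this list too.

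Immediate early genes, which growth factors switch on within minutes, had 7 of 20 members lower and 2 higher, with a median of -0.18. Quantile normalization and leaving out the dimmest genes each gave a median of -0.11. Fos, an AP-1 subunit, measured 213 and 191 on day 3, against 721 and 677 on day 1.5 (-1.79 ± 0.08, limma adjusted p = 2.65e-06). Myc, a driver of growth and of self-renewal, measured 284 and 282 on day 3, against 720 and 717 on day 1.5 (-1.34 ± 0.05). Egr1, a zinc finger factor downstream of ERK and SRF, measured 822 and 864 on day 3, against 2014 and 1923 on day 1.5 (-1.22 ± 0.06). All 3 were lower on both arrays of day 3. Dusp1, the brightest member not called, had a log2 fold change of 0.00 ± 0.05, and Jund, another AP-1 subunit, rose by 0.39.

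FGF and ERK targets had 6 of 16 members lower and 2 higher, with a median of -0.14. The median was -0.27 without replicate 2 of control day 3, -0.07 without replicate 1 of control day 3 and -0.05 after quantile normalization. Phlda1, a pleckstrin-like protein, measured 173 and 167 on day 3, against 472 and 458 on day 1.5 (-1.45 ± 0.06). Dusp6, the phosphatase that ERK induces and that switches ERK off, measured 823 and 833 on day 3, against 1228 and 1266 on day 1.5 (-0.59 ± 0.06, limma adjusted p = 0.000191). The ETS factor Etv4 fell by 0.54 ± 0.07. Fgf4, the ligand itself, had a log2 fold change of 0.12 ± 0.05 (limma adjusted p = 0.106), and the feedback inhibitor Spry2 one of -0.06 ± 0.06.

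BMP genes went both ways, with 5 of 15 members lower and 4 higher and a median of 0.08, and the rises were 2 without replicate 1 of control day 1.5 or replicate 2 of control day 3. The median was 0.0094 without replicate 2 and 0.04 without replicate 1 of control day 1.5, and 0.0014 with probe sets averaged per gene. Bmp4, the ligand, measured 468 and 429 on day 3, against 1369 and 1302 on day 1.5 (-1.58 ± 0.07, limma adjusted p = 1.76e-06). Among its targets, Id3 measured 350 and 367 on day 3, against 828 and 737 on day 1.5 (-1.12 ± 0.08), and Id1 measured 1097 and 1165 on day 3, against 1724 and 1653 on day 1.5 (-0.58 ± 0.05). Id proteins block differentiation-promoting helix-loop-helix factors. The related Id2 and Id4 rose by 0.23 and 0.35. The receptor Bmpr1a had a log2 fold change of 0.02 ± 0.06 on its brightest probe set, while 3 of its other 5 probe sets were called lower, and the mean of all its probe sets gave -0.34 (limma adjusted p = 0.00583), so its direction is unsettled.

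Wnt genes had 6 of 20 members lower and 2 higher, with a median of -0.11. Lef1, a DNA-binding partner of beta-catenin, measured 96.7 and 103 on day 3, against 205 and 193 on day 1.5 (-1.0 ± 0.08, limma adjusted p = 4.84e-05). Sp5, a direct Wnt target, measured 23.4 and 22.5 on day 3, against 52.7 and 44.8 on day 1.5 (-1.08 ± 0.11), and Notum, a secreted enzyme that inactivates Wnts, fell by 0.67 ± 0.08. These 3 lie downstream of the pathway. Wnt5a, a ligand, fell by 0.85, and was not called with the mean of all its probe sets (-0.21, limma adjusted p = 0.0871). Ctnnb1, beta-catenin itself, had a log2 fold change of -0.12 ± 0.05 and was not called (limma adjusted p = 0.0879).

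Of 18 Notch genes 5 were higher and 3 lower, with a median of 0.13, and the falls became 1 without replicate 1 of control day 1.5. The median was 0.20 without replicate 1 and 0.07 without replicate 2 of control day 3, and 0.08 with median centring. The receptor Notch1 measured 703 and 617 on day 3, against 423 and 397 on day 1.5 (0.68 ± 0.07, limma adjusted p = 0.000227), Notch3 rose by 0.42 ± 0.06 on a probe set with shared probes, and Mfng, a glycosyltransferase that tunes Notch receptors, rose by 0.47 ± 0.06. The effector Hes1 had a log2 fold change of -0.20 ± 0.08 and was not called. Of 13 Nodal, activin and TGF-beta genes 6 were higher and 4 lower, with a median of 0.09. The median was 0.14 without replicate 2 of control day 1.5, 0.04 with median centring and 0.17 after quantile normalization. Lefty1, the secreted Nodal antagonist, measured 2994 and 3370 on day 3, against 1743 and 1729 on day 1.5 (0.87 ± 0.07, limma adjusted p = 5.34e-05). Gdf3, a Nodal-related ligand, measured 1757 and 1722 on day 3, against 2657 and 2494 on day 1.5 (-0.57 ± 0.05), and Nodal itself fell by 0.36.

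LIF and STAT3 genes had 6 of 17 members lower and 2 higher, with a median of -0.11. The median was -0.04 after quantile normalization and -0.05 with probe sets averaged per gene. The 6 falls became 3 without replicate 2 of control day 3. The receptor chain Lifr measured 688 and 801 on day 3, against 985 and 1053 on day 1.5 (-0.46 ± 0.09, limma adjusted p = 0.0047), and the STAT3 target Bcl3 fell by 0.47 ± 0.05. The kinase Pim1 rose by 0.42 ± 0.06. Klf4, the best known STAT3 target of self-renewal, measured 4815 and 4973 on day 3 and 4656 and 4783 on day 1.5 (0.05 ± 0.05, not called).

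The core of the pluripotency network stayed within its spread or moved little, while several accessory genes fell. Of 18 core genes and markers 8 were lower and 2 higher, with a median of -0.12. The median was -0.07 without replicate 1 of control day 3 and -0.08 with probe sets averaged per gene. Nanog measured 6736 and 6992 on day 3, against 5495 and 5731 on day 1.5 (0.29 ± 0.05, limma adjusted p = 0.00352). Pou5f1 had a log2 fold change of -0.04 ± 0.05, Sox2 of 0.06 ± 0.08 and Zfp42 of -0.11 ± 0.06, and none of these 3 was called. Dppa3, a maternal factor that shields DNA methylation, measured 2997 and 2661 on day 3, against 1724 and 1602 on day 1.5 (0.76 ± 0.08, limma adjusted p = 0.000254). Dppa2, a chromatin protein of pluripotent cells, fell by 0.52 ± 0.05, and Eras, a stem cell Ras protein, fell by 0.48 ± 0.06, both on probe sets with shared probes. The summed intensity of the 18 markers was 106665 and 110032 on day 3, against 113409 and 115580 on day 1.5.

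Among 15 naive pluripotency factors 5 were lower and 1 higher. Gbx2, a homeodomain factor induced by LIF, measured 109 and 117 on day 3, against 354 and 333 on day 1.5 (-1.61 ± 0.07, limma adjusted p = 2.65e-06). Foxd3, a forkhead factor needed for the epiblast, measured 152 and 164 on day 3, against 319 and 346 on day 1.5 (-1.07 ± 0.08). Nr5a2, a nuclear receptor that can drive Pou5f1, fell by 0.63 ± 0.06, and Nr0b1, an orphan nuclear receptor, fell by 0.51 ± 0.05. Esrrb, another orphan receptor of the naive state, had a log2 fold change of 0.01 ± 0.07 and was not called. Primed epiblast genes had 5 of 14 members lower and 2 higher, with a median of -0.13. The median was -0.06 after quantile normalization and -0.02 with probe sets averaged per gene. Besides Lef1, Tcf15 fell by 0.32 ± 0.06, Cldn6 rose by 0.44 ± 0.07, and Zic2, a zinc finger factor of the epiblast, rose by 0.66 ± 0.21. The call of Zic2 was lost without replicate 2 of control day 1.5 (limma adjusted p = 0.259), replicate 1 of control day 3 (limma adjusted p = 0.105) or replicate 2 of control day 3 (limma adjusted p = 0.178). The 5 falls became 3 without either replicate of control day 3 or of control day 1.5.

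Germline and PRAME-like genes, most of them silent or weak in embryonic stem cells, had 9 of 19 members lower and 1 higher, with a median of -0.24. The median was -0.44 without replicate 2 of control day 1.5, -0.58 without the dimmest genes and -0.12 with the pseudocount of 16. Pramel6, which is most active in the inner cell mass, measured 44.1 and 49.8 on day 3, against 152 and 144 on day 1.5 (-1.66 ± 0.10, limma adjusted p = 9.78e-06), on a probe set with shared probes. Its relative Pramel7 measured 57.0 and 47.9 on day 3, against 109 and 108 on day 1.5 (-1.05 ± 0.09), also with shared probes, so the 2 paralogs may not have been measured apart. Sycp1, which zips the meiotic chromosomes, measured 79.9 and 75.1 on day 3, against 155 and 206 on day 1.5 (-1.21 ± 0.12). Sycp3, of the same meiotic structure, moved the opposite way, as given above. Among 15 chromatin and DNA methylation genes 5 fell and 0 rose. Dnmt3l, the cofactor of de novo DNA methylation, measured 3532 and 3568 on day 3, against 6854 and 6761 on day 1.5 (-0.94 ± 0.05, limma adjusted p = 5.51e-06), with shared probes, and Kdm3a, a histone H3K9 demethylase, fell by 0.59 ± 0.05. Uhrf1, which maintains DNA methylation, had a log2 fold change of -0.05 ± 0.05.

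Hypoxia response genes outside glycolysis were more often higher. Of 23 measured members 10 rose and 4 fell, with a median of 0.13. The median was 0.25 without replicate 1 of control day 1.5 and without the dimmest genes, 0.21 after quantile normalization and 0.08 with median centring. The 4 falls became 1 without replicate 1 of control day 1.5 and 2 without replicate 2 of control day 1.5 or replicate 1 of control day 3. Bnip3 has been described above. Car12, a carbonic anhydrase that handles acid at the cell surface, measured 255 and 248 on day 3, against 119 and 109 on day 1.5 (1.14 ± 0.07, limma adjusted p = 2.12e-05). Ddit4, an inhibitor of mTORC1 signalling, measured 3261 and 3102 on day 3, against 1668 and 1686 on day 1.5 (0.92 ± 0.06). Bhlhe40, a transcriptional repressor, measured 449 and 437 on day 3, against 258 and 243 on day 1.5 (0.82 ± 0.08). These 4 genes were high on both arrays of day 3. Vegfa, the angiogenic growth factor, rose by 0.68. Higd1a, the brightest member not called, had a log2 fold change of -0.05 ± 0.05. Kdm3a, described above, is a HIF target that fell.

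The promoter of Bnip3 shows the core of the hypoxia response element, ACGTG, in capitals as the palindrome that holds it on both strands. It lies at chr7:138909457-138909756 on the minus strand of GRCm38.p6, from RefSeq, and is shown because Bnip3 had the largest rise of the list.
Bnip3: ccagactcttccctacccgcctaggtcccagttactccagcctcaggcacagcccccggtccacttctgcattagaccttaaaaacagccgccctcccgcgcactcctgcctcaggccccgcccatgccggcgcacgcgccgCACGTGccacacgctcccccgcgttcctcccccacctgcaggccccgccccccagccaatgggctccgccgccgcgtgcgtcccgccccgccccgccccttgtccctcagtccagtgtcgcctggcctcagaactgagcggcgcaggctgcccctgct

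ACGTG, searched on both strands, was in 58.3% of the promoters of list members that rose (7 of 12 promoters, of 8 genes). It was in 56% of those of all members (14 of 25 promoters, of 19 genes). It was in 19.6% of all promoters and in 22.9% of those of the genes tested. It was in 40% of the promoters of list members that fell. Glycolytic enzymes held it in 53.6% of promoters, with 37.5% for members that rose (3 of 8 promoters) and 75% for members that fell (3 of 4 promoters). Some genes have several starts. The 8 promoters are of 6 genes, with the motif in Aldoc, Hk1 and Pgk1. The 4 promoters are of 3 genes, with the motif in Hk2 and Pfkfb3. The hypoxia list was built from known response genes, so its share above that of all promoters is no independent measure. A match is a description of the letters, not a site. Of 18 measured glycolytic genes 6 were higher and 3 lower, with a median of 0.11. With median centring the median was 0.06. Hk1, a hexokinase, measured 1006 and 877 on day 3, against 654 and 651 on day 1.5 (0.53 ± 0.10, limma adjusted p = 0.00575). Pfkfb3, which makes the activator of phosphofructokinase, fell by 0.51 ± 0.08, and Eno3, the muscle enolase, fell by 0.33 ± 0.06. With the mean of all its probe sets Pfkfb3 was not called (limma adjusted p = 0.0711). The bright enzymes Gapdh and Aldoa had log2 fold changes of 0.07 ± 0.05 and 0.10 ± 0.05 and were not called. The number of glycolytic genes that rose was not stable: it was 1 without replicate 1 or replicate 2 of control day 1.5 or replicate 1 of control day 3, and 3 without replicate 2 of control day 3.

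Lysosome and autophagy genes formed the list with the most rises. Of 25 measured members 17 were higher and 1 lower, with a median of 0.24. Hexa, a lysosomal hexosaminidase subunit, measured 3581 and 3640 on day 3, against 1890 and 1894 on day 1.5 (0.93 ± 0.05, limma adjusted p = 6.74e-06). Lamp2, a membrane protein of lysosomes, measured 2643 and 2546 on day 3, against 1516 and 1572 on day 1.5 (0.75 ± 0.07), on a probe set with shared probes, with 3 other probe sets called the same way. Laptm4b, another lysosomal membrane protein, measured 4252 and 4601 on day 3, against 2705 and 2822 on day 1.5 (0.68 ± 0.06). Wipi1, which acts in autophagosome formation, rose by 0.78 ± 0.14. The groups did not overlap in any of the 4 genes. Lamp1, the brightest member not called, had a log2 fold change of 0.13 ± 0.05 (limma adjusted p = 0.0871).

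The promoter of Ctsa, the lysosomal protective protein that rose by 0.58, is shown because it holds the CLEAR motif GTCACGTG of TFEB and its relatives in 2 places, marked in capitals, the later one on the opposite strand. RefSeq lists 2 starts for the gene on GRCm38.p6, and the one printed lies at chr2:164833523-164833822 on the plus strand.
Ctsa: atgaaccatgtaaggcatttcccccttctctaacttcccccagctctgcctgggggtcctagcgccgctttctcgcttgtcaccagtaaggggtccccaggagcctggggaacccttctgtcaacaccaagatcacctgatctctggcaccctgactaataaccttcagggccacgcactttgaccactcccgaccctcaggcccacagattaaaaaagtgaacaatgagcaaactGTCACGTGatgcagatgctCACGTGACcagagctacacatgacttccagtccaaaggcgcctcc

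GTCACGTG, searched on both strands, was in 31.2% of the promoters of list members that rose (5 of 16 promoters) and in 28% of those of all members (7 of 25 promoters). It was in 2.25% of all promoters and in 3.25% of those of the genes tested. The list was built from known lysosome and autophagy genes, so its share above that of all promoters is no independent measure. Every GTCACGTG also holds the ACGTG searched above. FoxO target and nutrient withdrawal genes had 7 of 18 members higher and 2 lower, with a median of 0.06. The median turned to -0.08 with probe sets averaged per gene. It was 0.10 without replicate 1 of control day 1.5 or replicate 2 of control day 3, 0.02 without replicate 1 of control day 3, 0.17 without the dimmest genes, 0.14 after quantile normalization and 0.0096 with median centring. Insr, the insulin receptor, which FoxO factors induce when insulin signalling is low, measured 205 and 206 on day 3, against 120 and 113 on day 1.5 (0.82 ± 0.08, limma adjusted p = 0.000169). Ccng2, a cyclin of quiescent cells, measured 262 and 258 on day 3, against 153 and 151 on day 1.5 (0.78 ± 0.07). Both genes were high on each array of day 3. Ypel3, a growth suppressor, rose by 0.48 ± 0.06, and Cited2, a coregulator that competes with HIF, fell by 0.66 ± 0.07. Txnip, which limits glucose uptake, had a log2 fold change of -0.16 ± 0.06 and was not called.

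Integrated stress response and ATF4 target genes had 12 of 33 members higher and 5 lower, with a median of 0.07. The median was 0.04 without replicate 1 of control day 3, 0.02 with median centring and 0.11 after quantile normalization. Ddit3, the transcription factor CHOP, measured 375 and 319 on day 3, against 238 and 205 on day 1.5 (0.65 ± 0.10, limma adjusted p = 0.00195). Nupr1, a stress-induced chromatin protein, measured 1584 and 1415 on day 3, against 1044 and 1040 on day 1.5 (0.52 ± 0.06). Members moved both ways, since Atf3 fell by 0.73 ± 0.11 and Slc7a3, a cationic amino acid transporter, fell by 0.59 ± 0.05. Atf4 itself had a log2 fold change of -0.07 ± 0.06. The 12 rises became 7 without replicate 1 or without replicate 2 of control day 1.5.

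The promoter of Nupr1 is printed as that of the strongest riser of this list that holds TGATGNAA, the composite motif bound by ATF4 with its C/EBP partners, in capitals on the opposite strand. It lies at chr7:126625421-126625720 on the minus strand of GRCm38.p6, from RefSeq.
Nupr1: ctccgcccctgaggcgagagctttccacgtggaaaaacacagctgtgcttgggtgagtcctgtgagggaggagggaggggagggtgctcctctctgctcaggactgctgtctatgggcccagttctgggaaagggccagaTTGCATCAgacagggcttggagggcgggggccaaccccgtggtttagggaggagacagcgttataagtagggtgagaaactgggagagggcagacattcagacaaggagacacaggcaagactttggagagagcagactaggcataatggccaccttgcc

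TGATGNAA, searched on both strands, was in 28.6% of the promoters of list members that rose (4 of 14 promoters, those of Asns, Nupr1, Pck2 and Vldlr). It was in 30.3% of those of all members (10 of 33 promoters), in 3.97% of all promoters and in 2.73% of those of the genes tested. The list was built from known ATF4 targets and stress response genes, so its share above that of all promoters is no independent measure. Chaperones of the endoplasmic reticulum had 5 of 16 members lower and 0 higher. Pdia3, a protein disulfide isomerase, measured 3137 and 3131 on day 3, against 4380 and 4369 on day 1.5 (-0.48 ± 0.05, limma adjusted p = 0.000133), and Creld2, a secreted stress marker, fell by 0.50 ± 0.05. Hspa5, the main chaperone, had a log2 fold change of -0.01 ± 0.05. Heat shock genes had 6 of 13 members lower and 1 higher, among them Hsph1 (-0.45 ± 0.05) and Hspa1b (-0.49 ± 0.08), while Hspa8 and Hsp90aa1 were not called. The 6 falls became 3 without replicate 1 of control day 1.5.

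Cholesterol synthesis and SREBP2 target genes fell together by small amounts. Of 20 measured members 15 were lower and 0 higher, with a median of -0.28. The median was -0.18 after quantile normalization or with probe sets averaged per gene. Cyp51, the sterol demethylase, measured 367 and 318 on day 3, against 480 and 469 on day 1.5 (-0.47 ± 0.08, limma adjusted p = 0.00264). Idi1, the isomerase of isoprenoid units, measured 1558 and 1625 on day 3, against 2135 and 2042 on day 1.5 (-0.39 ± 0.05), and Msmo1, a sterol oxidase, fell by 0.46 ± 0.06. With the mean of all its probe sets Msmo1 was not called (limma adjusted p = 0.418). Hmgcs1, which opens the pathway, had a log2 fold change of -0.05 ± 0.07 and was not called. The 15 falls became 7 without replicate 1 of control day 1.5 and 9 without replicate 2 of control day 3, and 8 after quantile normalization. Of 12 fatty acid synthesis genes 1 fell, Fads2 (-0.28 ± 0.05), and 0 rose, and Fads2 was not called in a fit of only the arrays compared (limma adjusted p = 0.0608). Among 17 metallothionein and antioxidant genes 7 fell and 2 rose: Gpx1, a cytosolic glutathione peroxidase, measured 5625 and 5230 on day 3, against 10536 and 10232 on day 1.5 (-0.94 ± 0.05, limma adjusted p = 8.16e-06), whereas its relative Gpx4, which guards lipids, rose by 0.37 ± 0.06. The 7 falls became 3 without replicate 1 of control day 1.5 and 4 without replicate 2 of either day.

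Of 23 genes of G1 and S phase 6 were higher and 6 lower. Besides Ccnd2, the changes included Cdkn2a, the locus of 2 cell cycle inhibitors, at 200 and 208 on day 3, against 127 and 132 on day 1.5 (0.65 ± 0.09, limma adjusted p = 0.000706), and Cdkn1b, the inhibitor p27, at 422 and 416 on day 3, against 307 and 298 on day 1.5 (0.47 ± 0.06). Rb1, the retinoblastoma protein, rose by 0.47 ± 0.09. Members of the same kind moved both ways. The inhibitor Cdkn2b fell by 0.46 ± 0.12, and the inhibitors Cdkn1a, Cdkn1c, Cdkn2c and Cdkn2d were not called. E2f1, a transcription factor that drives S phase entry, rose by 0.41 ± 0.10, and Cdc25a, a phosphatase that activates the cyclin-dependent kinases, rose by 0.30 ± 0.07. Rbl1, a relative of Rb1, rose by 0.24 ± 0.06. The kinase Cdk6 and the cyclins Ccne2, Ccnd1 and Ccna2 fell by 0.38, 0.42, 0.28 and 0.19, and Cdk4 (-0.13 ± 0.06) was not called. Without replicate 1 of control day 3 the rises were 3, and without replicate 2 of control day 1.5 or of control day 3 the falls were 3.

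Mitosis genes had 12 of 27 members lower and 1 higher, with a median of -0.14. The median was -0.07 without replicate 2 of control day 3 and -0.06 after quantile normalization. Kif20a, a kinesin of cytokinesis, measured 1022 and 1008 on day 3, against 1501 and 1513 on day 1.5 (-0.57 ± 0.05, limma adjusted p = 6.48e-05). Cdk1, the mitotic kinase, fell by 0.32 ± 0.05, and Birc5, survivin, fell by 0.45 ± 0.07, whereas Top2a had a log2 fold change of -0.02 ± 0.05. The 12 falls became 6 without replicate 1 of control day 1.5 and 7 without replicate 2 of either day. DNA replication genes had 9 of 30 members lower and 2 higher, with a median of -0.09 (-0.14 with median centring and -0.05 after quantile normalization), and the bright members Pcna and Mcm7 were not called. Pola1, the catalytic subunit of the priming polymerase, rose by 0.36 ± 0.05. The 9 falls of replication genes became 2 without replicate 1 of control day 1.5 and 5 without replicate 2 of control day 3. Of 17 nucleotide synthesis genes 6 fell and 2 rose, and the falls were 3 without replicate 2 of control day 1.5.

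Ribosome biogenesis genes had 14 of 32 members lower and 0 higher, with a median of -0.15. Polr1b, a large subunit of RNA polymerase I, measured 1012 and 1097 on day 3, against 1523 and 1498 on day 1.5 (-0.52 ± 0.06, limma adjusted p = 0.000375). The bright nucleolar genes Npm1 and Ncl had log2 fold changes of -0.01 ± 0.06 and -0.09 ± 0.05 and were not called. The 14 falls became 7 without replicate 1 of control day 1.5 and 7 without replicate 2 of control day 3. Of 79 listed cytosolic ribosomal protein genes 43 were measured. Of these 43, 0 were called in either direction, with log2 fold changes between -0.24 and 0.10. With median centring 3 were called lower.

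Mitochondrial ribosomal proteins had 32 of 76 members lower and 0 higher, with a median of -0.16. After quantile normalization the median was -0.08. Mrpl19, of the large subunit, measured 771 and 677 on day 3, against 1039 and 1017 on day 1.5 (-0.51 ± 0.07, limma adjusted p = 0.000955), and Mrps7, of the small subunit, measured 827 and 756 on day 3, against 1144 and 1056 on day 1.5 (-0.48 ± 0.06). The 32 falls became 20 without replicate 1 of control day 1.5. Subunits of the respiratory chain and ATP synthase had 12 of 78 members lower and 4 higher, with a median of -0.02, close to that of all genes. The median turned to 0.0049 without replicate 2 of control day 3 and to 0.02 after quantile normalization, and was -0.0055 without replicate 1 of control day 1.5, -0.04 without replicate 1 of control day 3 and -0.07 with median centring. Cox7c, of cytochrome c oxidase, measured 253 and 271 on day 3, against 486 and 543 on day 1.5 (-0.97 ± 0.13, limma adjusted p = 0.000666), on a probe set with shared probes. The 12 falls became 4 without replicate 1 of control day 1.5 and 6 without replicate 2 of control day 3, and the 4 rises became 0 without replicate 2 of control day 1.5 and 1 without replicate 1 of control day 3. Of 19 aminoacyl-tRNA synthetases 6 fell, such as Rars (-0.37 ± 0.06), and 3 rose. Without replicate 1 of control day 1.5 the falls were 3, and the rises were 0 without either replicate of control day 1.5 or replicate 1 of control day 3 and 1 without replicate 2 of control day 3.

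Targets of p53 and interferon-stimulated genes moved both ways. Of 25 p53 targets 5 were higher and 6 lower, with Btg2 (0.44 ± 0.08) and Aen (-0.49 ± 0.06) as examples and Ccng1 (-0.13 ± 0.05) not called. Without replicate 2 of control day 1.5 the rises of that list were 2, without replicate 1 of control day 3 they were 3, and without replicate 2 of control day 3 the falls were 3. Of 24 interferon-stimulated genes 3 were higher and 4 lower: Ifitm1 measured 12182 and 11777 on day 3, against 9013 and 9009 on day 1.5 (0.41 ± 0.05), and its relative Ifitm3 measured 4049 and 4027 on day 3, against 5558 and 5710 on day 1.5 (-0.48 ± 0.05). The paralogs thus moved oppositely. The 3 rises of that list became 1 without replicate 2 of control day 1.5 or replicate 1 of control day 3. Of 12 estrogen response genes, read because tamoxifen binds estrogen receptors, 3 rose and 0 fell: Igfbp4, a binding protein of insulin-like growth factors, rose by 0.80 ± 0.10, Ctsd by 0.48 ± 0.07, and Pgr, the progesterone receptor, by 0.35 ± 0.10 at intensities of 17.0 and 20.5 on day 3, against 15.5 and 13.9 on day 1.5. The call of Pgr was lost without replicate 2 of control day 1.5 (limma adjusted p = 0.147) and without replicate 2 of control day 3 (limma adjusted p = 0.162).

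The same genes were then followed after the split, on control day 6 against control day 3. That comparison uses the same day 3 arrays, so a chance deviation of those arrays enters both with opposite sign, and the values are given side by side only. It had 5000 called genes (27.5%), 3543 higher (19.5%) and 1457 lower (8.01%), with a median over all genes of 0.0253, and 3072 called genes without replicate 1 or 3315 without replicate 2 of control day 6. At least 2-fold higher on day 6 were 124 genes (0.682%) and at least 2-fold lower 17 (0.0934%). Krt8 changed by -1.79 between days 1.5 and 3 and by 2.68 between days 3 and 6, and Tagln by -2.05 and 2.74. Col4a1 changed by -2.03 and 2.09, Bmp4 by -1.58 and 1.48, and Myc by -1.34 and 1.27. On day 6 Krt8 averaged 4020 and Tagln 1214, both above their day 1.5 means of 2166 and 753. Among rises, Bnip3 changed by 1.16 and -1.19, Lrrc31 by 2.17 and -1.96, and Hexa by 0.93 and -0.62. Ddit3 and Nupr1, by contrast, changed by -0.02 and 0.10 between days 3 and 6, and neither was called. The 15 largest rises had changes of -1.96 to -0.74 between days 3 and 6, and the 15 largest falls had changes of 1.48 to 3.26.

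**Figure D4:**
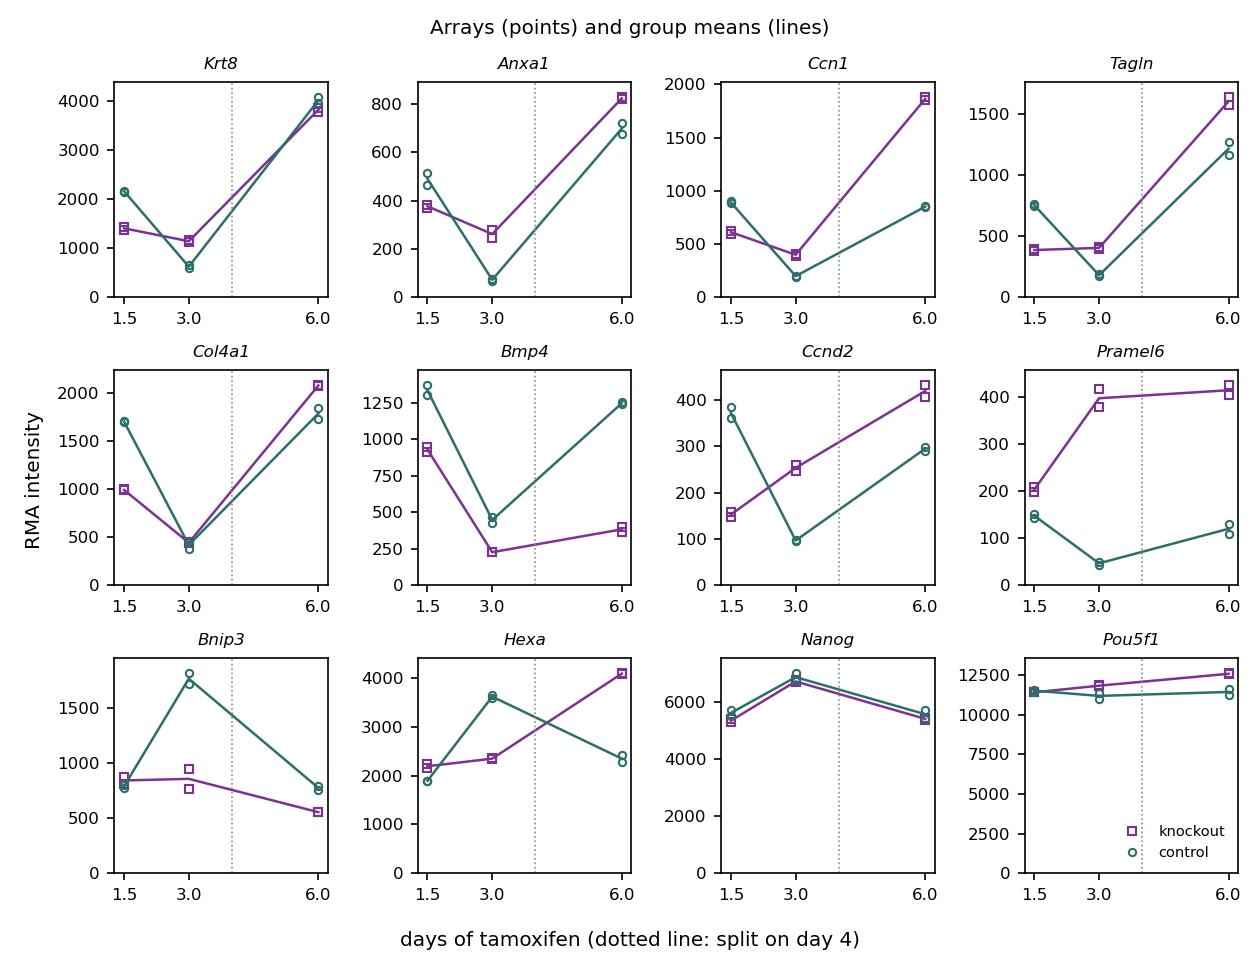
RMA intensity of 12 genes on days 1.5, 3 and 6 of tamoxifen, with squares for the 2 knockout arrays, circles for the 2 control arrays, lines through the group means and a dotted line at the split on day 4; each vertical axis starts at 0. In control cells Krt8, Anxa1, Ccn1, Tagln, Col4a1, Bmp4, Ccnd2 and Pramel6 are lowest on day 3 and Bnip3 and Hexa highest, while the means of Pou5f1 lie between 11188 and 11520.

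Whether the change between days 1.5 and 3 was the same when Thap11 was being lost was tested as the difference of the 2 changes, knockout minus control. The knockout comparison shares no array with the control comparison. In the line with CreERT2 3757 genes passed the test (20.6%), 1269 higher (6.97%) and 2488 lower (13.7%). Without 1 of its arrays the count was 1998 (replicate 1, day 1.5), 2046 (replicate 2, day 1.5), 2037 (replicate 1, day 3) or 2387 (replicate 2, day 3). At least 2-fold higher were 11 genes (0.0605%) and at least 2-fold lower 61 (0.335%). Of the rises, 308 genes were called in both lines, 24.3% of the knockout rises and 18.6% of the control rises. Of the falls, 1078 were called in both, 43.3% of the knockout falls and 32.6% of the control falls. The change itself differed between the lines for 2723 genes (15%), with 1387 more positive (7.62%) and 1336 more negative (7.34%) in knockout cells, of which 113 (0.621%) and 85 (0.467%) differed at least 2-fold. That count was 1724 without replicate 1 of knockout day 1.5, 1745 without replicate 1 of knockout day 3 and 1810 without replicate 1 of control day 1.5. The lines also differ by CreERT2 and in any feature of the clones, which cannot be told apart from the loss of Thap11.

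The falls of several cytoskeletal genes differed between the lines. Tagln changed by 0.06 in knockout cells and by -2.05 in control cells (difference 2.12 ± 0.09, limma adjusted p = 1.83e-05). Anxa1 changed by -0.53 in knockout cells and by -2.75 in control cells (difference 2.22, limma adjusted p = 4.09e-05). Krt8 changed by -0.30 in knockout cells and by -1.79 in control cells, and Ccn1 by -0.61 in knockout cells and by -2.16 in control cells. The levels on day 1.5 differed too: Tagln averaged 387 in knockout cells and 753 in control cells, and Krt8 averaged 1409 in knockout cells and 2166 in control cells. Of the 20 SRF and YAP targets, 10 had a more positive change in knockout cells and 0 a more negative one. Ccnd2 and Pramel6 went in opposite directions in the lines: Ccnd2 changed by 0.73 in knockout cells and by -1.94 in control cells, and Pramel6 by 0.96 in knockout cells and by -1.66 in control cells.

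Of the 15 largest control rises 7 were called in the same direction in knockout cells, as were 10 of the 15 largest control falls. Lrrc31 changed by -0.27 in knockout cells and by 2.17 in control cells (difference -2.44, limma adjusted p = 0.000321), and Bnip3 by 0.02 in knockout cells and by 1.16 in control cells (difference -1.14, limma adjusted p = 0.000681). Of the 23 hypoxia genes, 10 had a more negative change in knockout cells and 1 a more positive one. Of the 25 lysosome genes, 11 had a more negative change in knockout cells and 1 a more positive one. Hexa, for example, changed by 0.10 in knockout cells and by 0.93 in control cells. Other changes were alike: Nanog rose by 0.33 in knockout cells and by 0.29 in control cells, Lefty1 rose by 1.02 in knockout cells and by 0.87 in control cells, and Dusp6 fell by 0.66 in knockout cells and by 0.59 in control cells. For these 3 the difference was not called, which does not show that the lines were equal. Bmp4 fell by 2.03 in knockout cells and by 1.58 in control cells, and Srgn fell by 2.51 in knockout cells and by 1.49 in control cells, so these 2 fell further in knockout cells.

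Of 20 cholesterol genes 10 were lower in knockout cells and 15 in control cells, and the difference was called for 2 in the positive and 1 in the negative direction. The 15 largest control rises had knockout changes between -0.37 and 1.04, with the difference called in 12, and the 15 largest control falls had knockout changes between -1.96 and 0.73, with the difference called in 14. These genes were picked for their size in the same control arrays, so their differences are no independent measure.

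**Figure D5:**
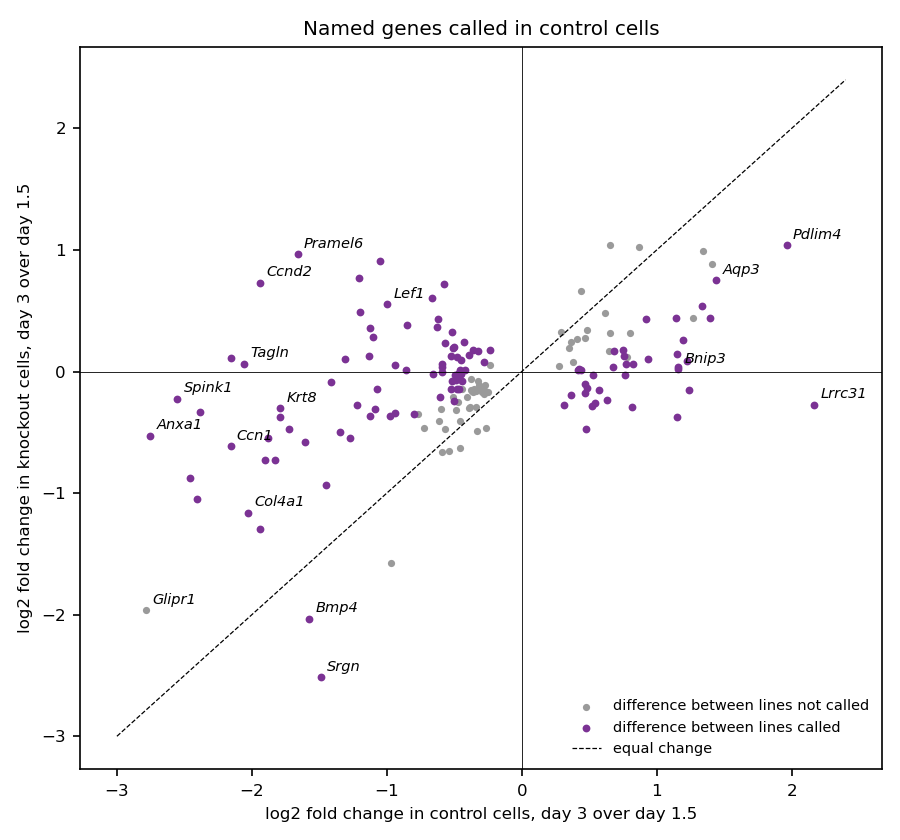
Log2 fold change, day 3 over day 1.5, in knockout cells (vertical axis) against that in control cells (horizontal axis) for the 172 named genes that were called in control cells, with purple points where the difference between the lines was called and a dashed line where the changes would be equal. Most purple points on the left lie above the dashed line, such as Tagln (0.06 against -2.05), and most on the right lie below it, such as Bnip3 (0.02 against 1.16), while Bmp4 and Srgn lie below it on the left.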

How the data were processed

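RNA of 12 samples, 2 arrays for each of 2 lines on 3 days, was measured on 1-colour Affymetrix Mouse Genome 430 2.0 arrays. The deposited values are intensities on a linear scale for each probe set, made by the authors with RMA per the submitters' processing notes, version not given in the sources used here. RMA evens out array distributions, so a change shared by most genes would not show. Groups follow the sample titles. Probe sets were named from the platform annotation: 34958 of 45101 have 1 symbol, 932 several and 9211 none, and list genes without such a probe set were not analysed here. For each of 18194 genes the probe set with the highest mean over the 12 arrays was kept. The log2 of the deposited intensity was fitted with limma 3.58.1 in R 4.3.3, with 6 group means over all 12 arrays, so the groups share 1 estimate of spread, and p-values were adjusted by Benjamini-Hochberg and called at 0.05. The number of arrays limits the precision. On data simulated for control day 3 against day 1.5 over 18194 genes, the fit recovered 34% of 50 genes changed 1.25-fold and 76% of 50 changed 1.5-fold. It recovered 96% of 50 changed 2-fold and 100% of 50 changed 3-fold. Only these genes were changed in the simulation, far fewer than the 4966 called in the data, so the shares need not hold for the data. Named genes are the 15 largest rises and 15 largest falls with arrays apart, up to 4 called and 2 bright uncalled members of each list, a fixed set (Thap11, Hcfc1, Pou5f1, Nanog, Sox2, Klf4, Zfp42 and Esrrb), and the 6 largest line differences in each direction. A few further list members, such as Cdkn2b, E2f1, Cdc25a, Anxa2, Krt19, Fn1, Gata4 and Vegfa, were named after their values were seen. The members and lists were chosen with earlier results of these data known. Alternatives covered the arrays fitted, moderation, weights, dim genes, probe sets, scaling, a pseudocount of 16 and each array left out. Figures were drawn with matplotlib 3.10.9.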

Additional observations from a re-analysis of the deposited data

Results flagged for a closer look

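The change from day 1.5 to day 3 differed between knockout and control cells, by the limma test of the difference, for the genes below by at least 2-fold. Values are knockout change minus control change on the log2 scale, and several of these genes were named because of a large control change, so the values are no independent sample. Among cytoskeletal, surface and secreted proteins the difference was 2.22 for Anxa1, 1.58 for Anxa3, 1.49 for Krt8, 1.26 for Krt18, 2.27 for Acta2, 2.12 for Tagln, 1.32 for Myl9, 1.54 for Ccn1, 1.17 for Ccn2, 1.05 for Col5a2, 1.26 for Cdh2, 2.33 for Spink1, 2.05 for Pla2g7 and 1.36 for Cryab. Among signalling and cell cycle genes it was 2.67 for Ccnd2, 1.42 for Fos, 1.48 for Id3, 1.30 for Id1, 1.55 for Lef1, 1.23 for Wnt5a, 1.27 for Notum, 1.33 for Pth1r and 1.10 for Bmper. Among transcription factors of the early embryo it was 1.03 for Gbx2 and 1.38 for Sox7, and among germline and PRAME-like genes 2.62 for Pramel6, 1.96 for Pramel7 and 1.97 for Sycp1. The interferon-stimulated genes Xaf1 and Gbp2 had differences of 1.41 and 1.68. Differences below 0 were -2.44 for Lrrc31, -1.38 for Ank3, -1.14 for S100a13, -1.14 for Bnip3, -1.13 for Dtx1, -1.01 for Copz2, -1.52 for Dner, -1.11 for Insr and -1.02 for Srgn. The next 5 genes entered for the line difference itself: the targeted Thap11 had -1.83, Nudt12 -2.29, Ubd -1.97, Cbr4 -1.76 and Cubn -1.76. A further 86 named genes had a called difference of less than 2-fold.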

How the results depend on the processing

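With a limma fit of only the arrays compared, called genes numbered 2829 for control day 3 against day 1.5, 2760 for control day 6 against day 3 and 2150 for knockout day 3 against day 1.5, against 4966, 5000 and 3757. Leaving out 1 array at a time gave 3156 to 4113, 3072 to 4177 and 1998 to 2387 for these comparisons, and 1724 to 2430 for the difference between the lines, against 2723. Where an array was left out, the lone array was assumed to vary like the other groups. With trend and robust moderation the difference between the lines had 3920 calls. All other alternatives kept these counts within 1.5 times. As a check of whether replicate numbers pair the samples, replicate differences of the groups were correlated, at -0.0573 to 0.173. The 0.173 belongs to control day 1.5 and control day 3, the groups compared here, and pairing within these alone was not tested. With the replicate number as a block, as 1 effect shared by all groups, the counts were 4808, 4868, 3613 and 2543. Of 172 named genes called for control day 3 against day 1.5, 143 stayed called in the same direction under every alternative that refitted them for that comparison. Leaving out an array of another group did not refit it. With the mean of all probe sets, Bmpr1a was -0.34 (adjusted p = 0.00583; 0.02 on its brightest probe set) and Orc1 0.0644 (adjusted p = 0.643; -0.25 on its brightest), and the cause was not tested. Counts in several lists depended on the setting: 1 replication gene fell with only the arrays compared and 16 with trend and robust moderation, against 9, and glycolytic rises ran from 1 to 10, against 6. With 2 arrays a group, changes below 1.5-fold were often missed in the simulated data, which held far fewer changed genes than were called here. A gene not called may still have changed.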
